A study of Mus musculus with 24 samples.

Results

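A set of 10 mostly noncoding or clone-named mouse genes was measured in the RNA of germ cells from Ddx4 knock-in mice. Ddx4 encodes a DEAD-box RNA helicase found in germ granules. They are Malat1, Neat1, Wbscr25, 4930444F02Rik, 4930442J19Rik, 4933435G04Rik, 4930405N21Rik, A930030B08Rik, Gm43353 and Gm44168, 10 of the 55401 genes listed in the CB tables and of the 55364 in the round spermatid tables. The 10 genes were selected on their measured genotype differences in these same RNA libraries, so those differences are given as a description, with no test. The groups were homozygous knock-in (KK), heterozygous knock-in (WK) and wild-type (WT) mice, whose testis cells were released by a 2-step digestion. Round spermatid RNA had 2 libraries of each genotype, made from 1000 ng of RNA. CB RNA had 3 KK and 3 WK libraries, made from 25 ng with a strand-specific kit and no poly(A) selection or ribosomal depletion; no WT CB library was analysed here. Small RNA had 2 libraries of each genotype from round spermatids, which are haploid and come just after meiosis, and 2 of each from pachytene spermatocytes, the cells of meiotic prophase. The labels do not say what CB stands for and give neither animal age nor the knocked-in change. They number the libraries without naming animals, so p-values here cover spread among libraries that could be technical repeats.

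Long noncoding RNAs are transcripts that are not read into protein. Malat1 is an abundant nuclear RNA found at nuclear speckles, the stores of splicing factors, and Neat1 is the RNA around which paraspeckles are built, with a long isoform that is required for them. In the testis another class of long RNA serves as precursor: pachytene piRNA clusters are transcribed as long single-stranded RNAs, many of them under the transcription factor A-MYB in mouse spermatocytes, and are then cut into PIWI-interacting RNAs (piRNAs). Ddx4, also called Vasa, is known in mouse for its part in piRNA production and for its place in the chromatoid body, a cytoplasmic germ granule of spermatids. The roles of the other 8 genes are not stated here.

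5 of the 10 genes have a position in the GRCm38.p6 annotation of RefSeq, all as long noncoding RNAs. Malat1 lies at chr19:5795690-5802672, and Neat1 at chr19:5824708-5845480 on the same chromosome. 4930444F02Rik spans chr10:18797299-18831930, 4930442J19Rik spans chr2:151302039-151316003 and Wbscr25 spans chr5:134987433-135001350. The positions of 4933435G04Rik, 4930405N21Rik, A930030B08Rik, Gm43353 and Gm44168 were not used here. Of the 5 positioned genes, 4930444F02Rik lay wholly (100%) inside a piRNA cluster, the pachytene cluster at chr10:18796805-18831930. The nearest clusters of the other positioned genes were 143 kb away for 4930442J19Rik, 148 kb for Wbscr25, 4137 kb for Neat1 and 4180 kb for Malat1.

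RefSeq promoter windows (GRCm38.p6, 250 bases before to 50 bases after the start site) matched 3 of the 10 genes. All 3 are shown, and no link between these sequences and the genotype differences was tested. Capitals mark matches, on either strand, to the MYB motif (CAACNG or TAACNG), the cyclic AMP response half-site (TGACG), the CCAAT box (CCAAT) or the TATA box (TATAAA). The windows are chr10:18831881-18832180 on the minus strand, chr2:151301789-151302088 on the plus strand and chr19:5802623-5802922 on the minus strand, in the order printed.
4930444F02Rik: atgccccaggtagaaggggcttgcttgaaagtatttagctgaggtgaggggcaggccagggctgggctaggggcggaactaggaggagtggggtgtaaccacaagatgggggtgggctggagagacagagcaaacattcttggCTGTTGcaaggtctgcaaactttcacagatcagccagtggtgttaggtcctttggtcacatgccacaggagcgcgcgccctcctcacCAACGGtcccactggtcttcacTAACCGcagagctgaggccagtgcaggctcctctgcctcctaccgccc
4930442J19Rik: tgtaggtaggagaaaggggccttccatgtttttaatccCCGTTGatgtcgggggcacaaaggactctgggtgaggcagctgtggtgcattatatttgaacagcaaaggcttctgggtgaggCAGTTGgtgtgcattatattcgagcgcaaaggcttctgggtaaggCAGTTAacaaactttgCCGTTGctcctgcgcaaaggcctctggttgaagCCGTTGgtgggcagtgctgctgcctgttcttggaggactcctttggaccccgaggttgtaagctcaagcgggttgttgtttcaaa
Malat1: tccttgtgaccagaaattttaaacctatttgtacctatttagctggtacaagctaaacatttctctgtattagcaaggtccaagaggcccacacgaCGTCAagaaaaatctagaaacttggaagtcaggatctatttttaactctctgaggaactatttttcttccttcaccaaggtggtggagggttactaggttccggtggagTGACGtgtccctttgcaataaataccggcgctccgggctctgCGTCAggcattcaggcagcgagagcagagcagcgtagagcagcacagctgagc

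The 4930444F02Rik window held 3 matches to the MYB motif and the 4930442J19Rik window held 5, and the Malat1 window held 0. The MYB motif was found in 49.7% of the 32851 windows of the table, so its presence in a window is common. The Malat1 window held 3 matches to the cyclic AMP response half-site, which 20.8% of all windows held, and the other 2 windows held 0. No capitals in the 3 windows come from the CCAAT box (37.4% of all windows) or the TATA box (13.6%). GC content was 59.0%, 52.0% and 47.0% in the order printed, beside a median of 52.7% over all windows, and the windows held 7, 9 and 10 CpG dinucleotides beside a median of 7. These matches describe letters only.

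The RNA libraries held 14.2 to 16.5 M counts (CB) and 15.3 to 24.9 M (round spermatids), and the small RNA libraries 9.2 to 24.1 M cluster reads in spermatids and 24.2 to 27.3 M in spermatocytes. Levels below are CPM, counts scaled to TMM-adjusted library sizes. For the listed genes, Ddx4 and the marker sums the factors were set apart for CB and round spermatid RNA. These CPM thus share no common scale between the kinds of library. Ddx4 was lower in KK than in WK or WT round spermatids (121 and 130 CPM in KK, 406 and 403 in WK, 443 and 521 in WT), and its KK and WK libraries overlapped in CB RNA (244 to 306 CPM in KK, 277 to 365 in WK). The WT round spermatid libraries differed strongly from each other, with a chi-square per degree of freedom of 95.05, beside 3.66 for KK and 2.47 for WK. WK CB library 1 stood apart, with 28.57 and 28.51 against the other WK libraries, which differed by 5.27. Among small RNA groups the KK spermatid libraries differed most from each other, at 430.82, beside 60.62 to 199.69 in the other groups. Summed over markers of other testis cells, KK round spermatid libraries held 20 to 20.6 CPM of 7 Sertoli markers (35.4 in both WK, 37.5 to 42.7 in WT), 15 to 16.3 of 5 Leydig markers (8.19 to 9.15 in WK, 5.26 to 7.96 in WT), 29.4 to 31.5 of 5 peritubular and vascular markers (19.5 to 22.7 in WK, 15.5 to 15.6 in WT) and 22.1 to 22.2 of 6 immune markers (16.8 to 18.4 in WK, 7.47 to 8.64 in WT). The 6 pachytene spermatocyte markers summed to 851 to 872 CPM in KK, 951 to 969 in WK and 990 to 1130 in WT. The 6 spermatogonial markers summed to 66.1 to 73 CPM in KK, 71.1 to 71.4 in WK and 59.3 to 64 in WT. The 9 round spermatid markers summed to 9710 to 9910 CPM in KK, 9080 to 9600 in WK and 9750 to 20500 in WT. No marker of these lists was at 0 in every library of a group. Their part in the genotype differences was not tested, and in bulk samples fewer cells of a type and less RNA per cell cannot be told apart.

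In round spermatids 4930444F02Rik and 4930442J19Rik were several times higher in KK than in WK or WT. Malat1 and A930030B08Rik were instead lowest in KK and highest in WK, an order of means that Wbscr25 and Gm44168 shared. In CB RNA 4930444F02Rik was again higher in KK than in WK, as were 4933435G04Rik, Gm43353, 4930405N21Rik and Gm44168, and Wbscr25 was lower. Smaller CB differences without overlap were seen for 4930442J19Rik, higher in KK, and for Neat1 and A930030B08Rik, lower in KK. Differences are log2 from the edgeR quasi-likelihood fit over all genes, and a call is an adjusted p under 0.05. Of the 9 genes that passed the filter on low counts in round spermatids, 2 were called in KK against WT, where 2.86% of 17809 genes were called, 3 in KK against WK (1.73% of genes), and 0 in WK against WT (0% of genes by edgeR, with 1296 genes at an unadjusted p under 0.05 and 5 called by DESeq2). In CB RNA all 10 genes passed the filter and 6 were called in KK against WK, where 1.72% of 19335 genes were called. Because these contrasts chose the genes, nothing is read from these counts. They were 0 in KK against WT and 0 in KK against WK when either KK round spermatid library was left out, 1 and 0 without either WK library, and 6 and 6 without WT library 1. Without WT library 2 they were 2 and 6, and WK against WT then had 4, beside 2 without WT library 1. In CB RNA they stayed between 5 and 7 with any library left out. The libraries of the compared genotypes did not overlap for 7 of 9 genes in KK against WT round spermatids (51.7% of all genes), 6 of 9 in KK against WK (64.6%), 4 of 9 in WK against WT (44.6%) and 9 of 10 in KK against WK CB RNA (21.2%).

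**Figure D1:**
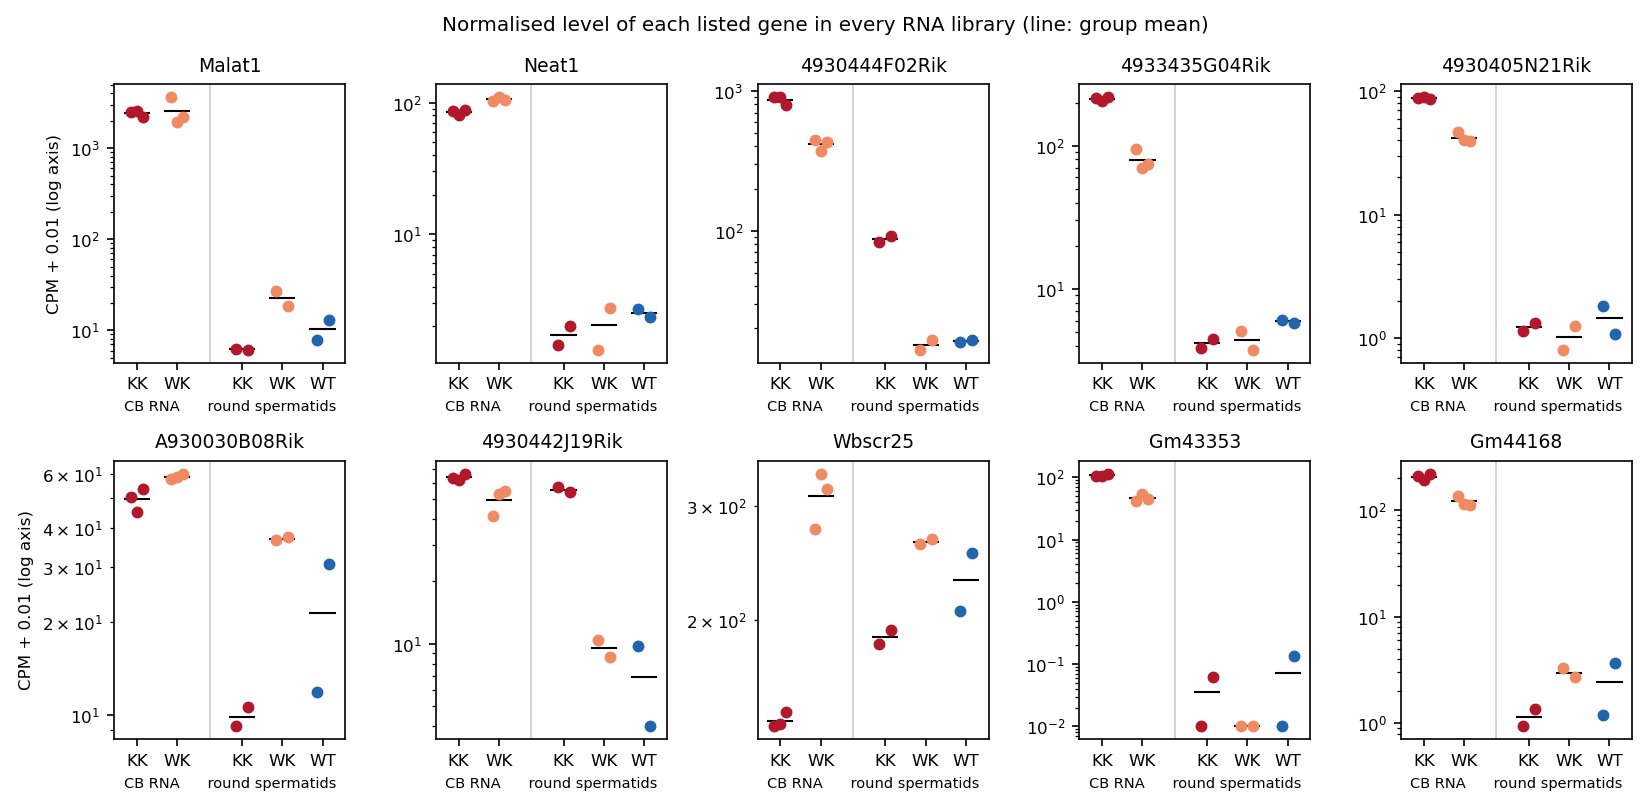
Each panel shows 1 gene, with a point for each RNA library, CPM plus 0.01 on a log axis and a line at the group mean, for KK and WK CB RNA and for KK, WK and WT round spermatids. 4930444F02Rik and 4930442J19Rik stand highest in KK within round spermatids, and both KK libraries of Malat1, A930030B08Rik and Wbscr25 stand lowest there.

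**Figure D2:**
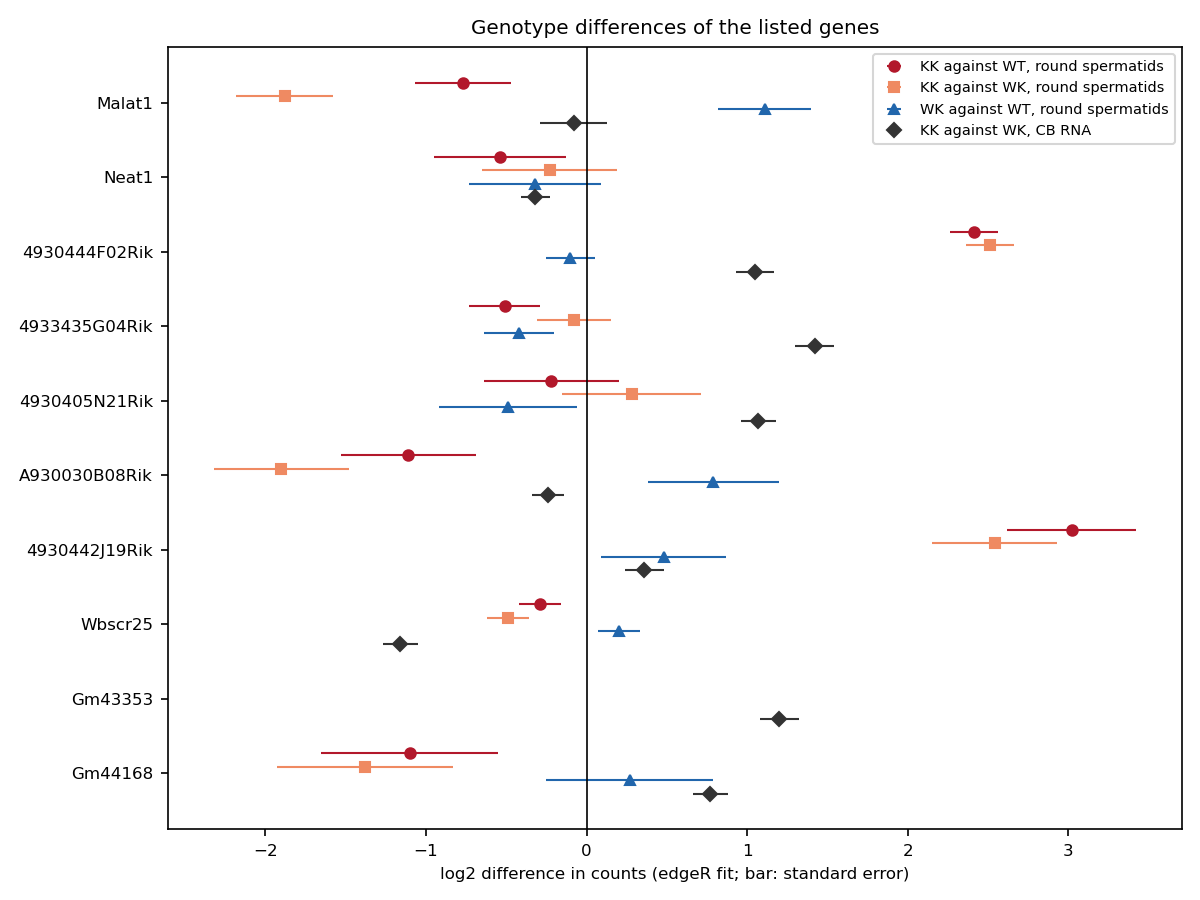
Points are log2 differences between genotypes from the edgeR fit and bars are standard errors, for KK against WT, KK against WK and WK against WT in round spermatids and KK against WK in CB RNA. Gm43353 has no round spermatid value because its counts did not pass the filter, and no test is attached to any of the points.

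4930444F02Rik, a single-isoform transcript of 6871 bases in the isoform tables, had 83.2 and 90.9 CPM in KK round spermatids, against 14 and 16.5 CPM in WK and 16 and 16.6 CPM in WT. Both KK libraries stood far above the other 4, and WK and WT overlapped. The fitted difference was 2.41 on the log2 scale (SE 0.15), or 5.33-fold, over WT and 2.51 (SE 0.15) over WK. Without WT library 1 it was 2.39 over WT. In CB RNA the gene had 898, 902 and 794 CPM in KK, against 444, 373 and 432 CPM in WK. The CB groups did not overlap, and the difference was 1.05 (SE 0.12), or 2.08-fold. Gm4922, the nearest annotated gene that does not overlap it, was not called in any genotype comparison; in KK against WT round spermatids it had 9.71 ± 0.796 and 9.19 ± 1.36 CPM (SD, n = 2 each; edgeR adjusted p = 0.828). A second annotated long noncoding RNA, Gm32926, overlaps 4930444F02Rik, so the reads of the pair may not be separable.

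The cluster that covers 4930444F02Rik gives a readout that the choice of genes did not use, its small RNA reads. In round spermatids it held 0.700% and 0.826% of cluster reads in KK, against 0.202% and 0.206% in WK and 0.544% and 0.618% in WT. By share WK was the lowest genotype and KK the highest, and no groups overlapped. After TMM scaling KK (6460 and 7320 CPM) and WT (6710 and 7750 CPM) overlapped, and WK stayed lowest (1950 and 2040 CPM). The KK libraries were also the shallow ones, and the part of depth was not tested. The cluster rose in KK against WK by 1.79 on the log2 scale (SE 0.08, edgeR adjusted p = 1.01e-08; 72.4% of 214 clusters called) and fell by 1.86 in WK against WT (SE 0.08, adjusted p = 6.95e-09; 77.1% called). The KK difference from WT was -0.07 (SE 0.08, adjusted p = 0.42; 86.9% called), and it passed the threshold at 0.39 without scaling factors (adjusted p = 0.00122) and at 0.25 without WT library 2. Relative to the median cluster these differences were 1.72, -1.95 and 0.06.

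In spermatocytes the same cluster held 0.181% and 0.188% of all cluster reads in KK, against 0.445% and 0.441% in WK and 0.642% and 0.673% in WT. Here KK was the lowest genotype and WT the highest, and no groups overlapped. The edgeR difference was -1.70 on the log2 scale in KK against WT (SE 0.08, adjusted p = 1.87e-08; 68.2% of clusters called) and -1.54 in KK against WK (SE 0.08, adjusted p = 3.06e-08; 84.1% called). WK differed from WT by -0.16 (SE 0.08), which missed the threshold (adjusted p = 0.0717; 80.4% called) but passed it without scaling factors (-0.57, adjusted p = 0.000122) and in 8 of the 12 fits with 1 library left out (range -0.41 to -0.14). The median cluster moved by 0.30, 0.35 and 0.15 in the same comparisons, so the cluster stood at -2, -1.89 and -0.31 relative to it.

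The genotype differences themselves differed between spermatids and spermatocytes, by 1.64 for KK against WT (edgeR adjusted p = 1.48e-07; 79.9% of clusters called), 3.33 for KK against WK (adjusted p = 7.15e-10; 75.2% called) and -1.69 for WK against WT (adjusted p = 1.24e-07; 89.7% called). Most clusters were called in each of these comparisons, so a call at this cluster is not particular to it. The RNA and the small RNA of the locus thus had different orders of genotype in round spermatids: 4930444F02Rik RNA had like levels in WK and WT, while the small RNA share was lower in WK than in WT.

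**Figure D3:**
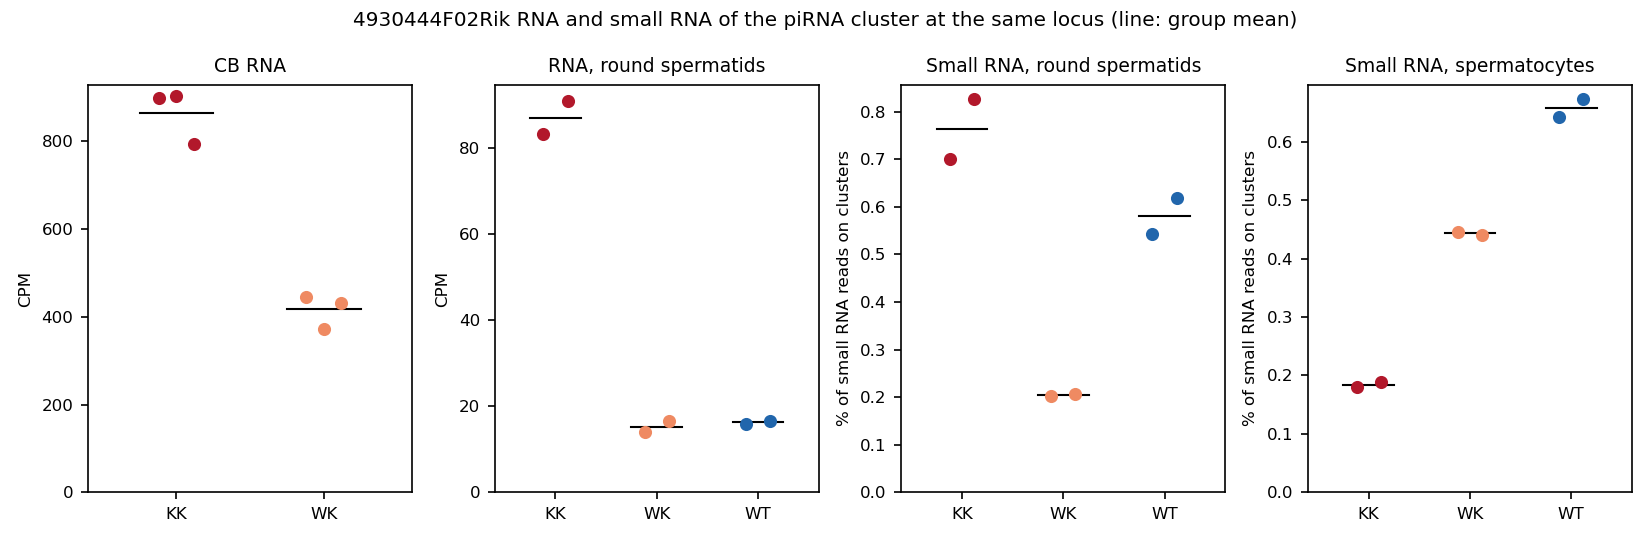
The first pair of panels shows 4930444F02Rik RNA (CPM) in CB libraries and in round spermatids, and the second pair shows the percentage of cluster small RNA reads on the piRNA cluster at the same locus in round spermatids and in spermatocytes; points are libraries and lines are group means. In round spermatids KK has the highest small RNA share (0.700% and 0.826%), while in spermatocytes KK has the lowest (0.181% and 0.188%). After TMM scaling, not shown, KK and WT round spermatids overlap.

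4930442J19Rik had 57 and 53.9 CPM in KK round spermatids, against 10.4 and 8.64 CPM in WK and 9.81 and 3.99 CPM in WT. The KK libraries stood apart from all others, and WK overlapped with WT. The difference was 3.02 on the log2 scale over WT (SE 0.40), or 8.12-fold, and 2.54 over WK (SE 0.39); without WT library 1 the WT comparison gave 3.79. In CB RNA it had 63, 61.4 and 66.2 CPM in KK, against 41.3, 52.8 and 54.7 CPM in WK, a difference of 0.36 (SE 0.12). CPM of the 2 kinds of library share no common scale. In the fit of all RNA libraries together, CB RNA differed from round spermatids by 0.04 in KK (log2, SE 0.24). By deposited TPM the KK levels lay further apart, with 68.5 ± 6.08 TPM (SD, n = 2) in round spermatids against 150 ± 8.96 TPM (SD, n = 3) in CB RNA. Its 1721-base isoform took 90.3% and 92.7% of the gene's expected counts in KK round spermatids, 86.9% and 87.7% in WK and 91.7% and 88.0% in WT. By length-corrected TPM the share of this isoform was lower than by counts in every genotype. It was 59.68% and 66.89% in KK, 51.39% and 53.48% in WK and 68.14% and 54.14% in WT. The 542-base isoform was higher in KK as well, at 29.36 and 21.27 TPM, against 7.41 and 5.58 in WK and 2.79 and 2.49 in WT.

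Malat1 had 6.22 and 6.08 CPM in KK round spermatids, against 26.8 and 18.4 CPM in WK and 7.85 and 13 CPM in WT. WK was the highest genotype and KK the lowest, with no overlap between any pair of groups. The difference was -1.88 on the log2 scale in KK against WK (SE 0.30), -0.77 in KK against WT (SE 0.30) and 1.11 in WK against WT (SE 0.29). Leaving out WT library 1 changed the comparisons with WT to -1.08 for KK and 0.81 for WK, and leaving out WT library 2 gave -0.34 and 1.54. By the deposited TPM the KK difference from WT was 0.22, opposite in sign: in KK library 1 a 485-base isoform with 2.12 expected counts took 38.44% of the gene's TPM, and in KK library 2 a 656-base isoform with 3.93 counts took 40.9%. The full-length isoform of 6983 bases took 97.5% and 96.6% of expected counts in KK, 99.5% and 100% in WK and 100% in both WT libraries. In CB RNA Malat1 had 2520, 2570 and 2210 CPM in KK, against 3640, 1930 and 2180 CPM in WK. These groups overlapped, and the difference of -0.08 (SE 0.21) became 0.23 without WK library 1.

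Neat1 had 1.44 and 1.99 CPM in KK round spermatids, against 1.31 and 2.75 CPM in WK and 2.67 and 2.34 CPM in WT. These are 25 to 57 counts a library, and the differences of -0.54 in KK against WT (SE 0.41) and -0.23 in KK against WK (SE 0.42) are within 2 standard errors of 0. In CB RNA it had 86.6, 80.7 and 87.2 CPM in KK, against 103, 110 and 104 CPM in WK, with no overlap and a difference of -0.32 (SE 0.09). The 20771-base isoform, which scaffolds paraspeckles, took 71.7%, 74.0% and 75.0% of Neat1 expected counts in KK CB RNA and 68.9%, 68.8% and 68.6% in WK CB RNA. In round spermatids it took 0% and 12.1% in KK, 46.1% and 19.2% in WK and 4.7% and 18.2% in WT. Every CB library was thus above every round spermatid library in this share, but the round spermatid shares rest on at most 11.52 expected counts of that isoform. By length-corrected TPM the long isoform was the minor one in CB RNA too, with 24.7% ± 2.31 of Neat1 TPM in KK and 20.9% ± 0.484 in WK (SD, n = 3 each). Frmd8, next to Neat1, was not called in any genotype comparison (72.1 ± 3.82 CPM in KK and 66.1 ± 5.62 in WK CB RNA, SD, n = 3 each; edgeR adjusted p = 0.661).

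**Figure D4:**
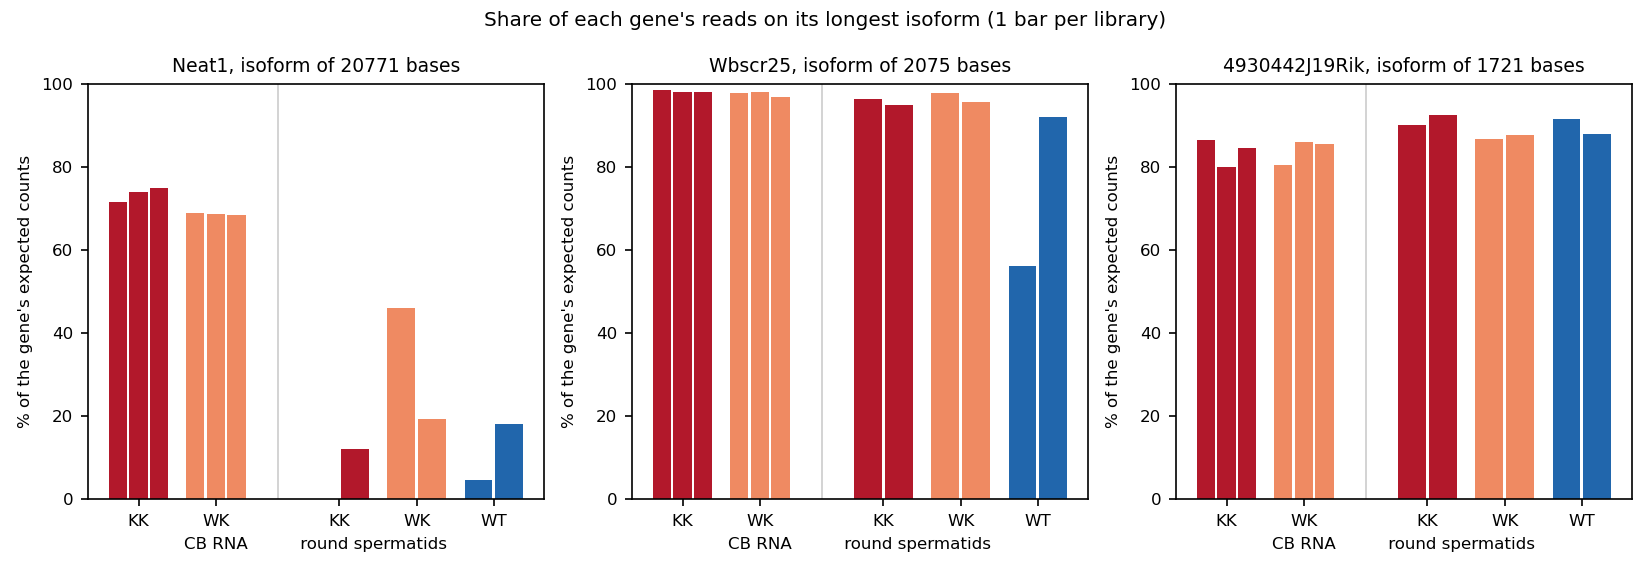
Bars give, for each RNA library, the percentage of a gene's expected counts on its longest isoform for Neat1 (20771 bases), Wbscr25 (2075 bases) and 4930442J19Rik (1721 bases). The Neat1 share is 68.6% to 75.0% in CB RNA and 0% to 46.1% in round spermatids, and WT round spermatid library 1 has the lowest Wbscr25 share (56.3%).

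Wbscr25 had 137, 138 and 144 CPM in KK CB RNA, against 277, 337 and 319 CPM in WK. All KK libraries were below all WK libraries, and the difference was -1.16 on the log2 scale (SE 0.11), or 2.23-fold lower in KK. In round spermatids it had 184 and 193 CPM in KK, 262 and 267 CPM in WK and 207 and 254 CPM in WT, differences of -0.49 from WK (SE 0.13) and -0.29 from WT (SE 0.13). The 2075-base isoform carried 95% to 98.6% of its counts in all libraries but those of WT round spermatids, where it carried 56.3% in library 1 and 92.2% in library 2. Cldn3, the gene of a tight junction protein, overlaps Wbscr25 in the annotation, so counts of the pair are uncertain. Cldn3 fell in KK CB RNA (27.8 ± 2.13 CPM in KK and 51.6 ± 5.24 in WK, SD, n = 3 each; difference -0.89, SE 0.12, edgeR adjusted p = 0.00639), a call that was lost without KK CB library 2 (adjusted p = 0.0581). Cell markers moved in the same CB comparison. Of 9 round spermatid markers 3 fell by edgeR and 5 were called by DESeq2. Of all 19335 genes, 1.72% were called by edgeR and 598 genes by DESeq2. The round spermatid list summed to 885 to 928 CPM in KK and 1110 to 1700 in WK. The 3 that fell by edgeR were Prm1, a protamine that packs sperm DNA (difference -1.27, edgeR adjusted p = 0.0216), Tssk6 (-0.73, adjusted p = 0.00666) and Spaca1 (-0.49, adjusted p = 0.0431). Of 5 immune markers tested 1 rose, Cd74 (1.59, edgeR adjusted p = 0.0343). Leydig markers summed to 136 to 146 CPM in KK and 70.1 to 122 in WK, though 0 of 5 was called by edgeR. Peritubular and vascular markers summed to 13.6 to 14.7 CPM in KK and 11 to 13.5 in WK. KK and WK sums overlapped for Sertoli (69.3 to 73.1 and 58.1 to 109), pachytene (962 to 1060 and 591 to 1090) and spermatogonial markers (79.6 to 81.6 and 46.7 to 95.5). Their part in the CB genotype differences was not tested.

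4933435G04Rik, of 2108 bases, had 215, 204 and 218 CPM in KK CB RNA, against 94.1, 70.3 and 73.8 CPM in WK, a difference of 1.42 (SE 0.12). 4930405N21Rik, of 1200 bases, had 87.9, 89.7 and 87.1 CPM in KK CB RNA, against 46.6, 40.4 and 39.2 CPM in WK, a difference of 1.07 (SE 0.11). Both genes were separated by genotype in CB RNA and scarce in round spermatids. There 4933435G04Rik had 3.85 and 4.45 CPM in KK, 5.05 and 3.73 CPM in WK and 6.05 and 5.76 CPM in WT. 4930405N21Rik had 1.13 and 1.31 CPM in KK round spermatids, 0.788 and 1.24 CPM in WK and 1.8 and 1.07 CPM in WT, which are 15 to 33 counts a library. Neither had a KK level apart from WK in round spermatids.

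Gm43353, of 1295 bases, had 106, 103 and 114 CPM in KK CB RNA, against 41.6, 53.7 and 44.7 CPM in WK, a difference of 1.20 (SE 0.12). In the 6 round spermatid libraries it had 1 count in KK, 0 in WK and 3 in WT in all, so no genotype comparison was possible there. Gm44168, of 3539 bases, had 208, 191 and 220 CPM in KK CB RNA, against 135, 115 and 112 CPM in WK, a difference of 0.77 (SE 0.11). In round spermatids Gm44168 ran the other way, with 0.925 and 1.36 CPM in KK, against 3.26 and 2.69 CPM in WK and 1.2 and 3.66 CPM in WT. These are 18 to 89 counts a library, and the difference of -1.38 from WK has an SE of 0.55. KK and WK did not overlap in either kind of library, whereas in round spermatids each of them overlapped WT.

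A930030B08Rik, of 3965 bases, had 9.2 and 10.6 CPM in KK round spermatids, against 36.6 and 37.5 CPM in WK and 11.9 and 30.7 CPM in WT. The WT libraries lay far apart, library 1 near KK and library 2 nearer WK. The difference was -1.90 in KK against WK (SE 0.42) and -1.11 in KK against WT (SE 0.42), the second being -1.63 without WT library 1 and -0.25 without WT library 2. In CB RNA it had 50.5, 45.3 and 53.6 CPM in KK, against 57.8, 58.4 and 60 CPM in WK, a difference of -0.24 (SE 0.10). By their means Malat1, Wbscr25 and Gm44168 had the same order as A930030B08Rik in round spermatids, WK above WT above KK.

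The contrast of CB RNA with round spermatid RNA, averaged over KK and WK, was not one of the genotype comparisons. Kit, input amount and labelled source all differ with it and cannot be told apart; the round spermatid kit's strandedness is not stated. Of 22002 genes tested, 82.5% were called, 10059 higher and 8101 lower, with a median of 0.28, so a call here is the common case. A gene chosen for its CB genotype difference also had to have counts there. Malat1 was 187-fold higher in CB RNA (log2 7.55, SE 0.27, edgeR adjusted p = 1.4e-11), Gm44168 74.9-fold (adjusted p = 3.06e-11), 4930405N21Rik 48.3-fold (adjusted p = 4.55e-12) and Neat1 45.1-fold (adjusted p = 6.4e-12). 4933435G04Rik was 26.7-fold and 4930444F02Rik 14.5-fold higher (adjusted p = 4.47e-12 for each). A930030B08Rik was 2.49-fold higher (adjusted p = 2.59e-05) and 4930442J19Rik 2.15-fold higher (adjusted p = 6.75e-05). By the deposited TPM, where the median gene stood at 1.05, their log2 differences were 2.24 (1.31 by counts) and 2.04 (1.10 by counts), and those of the other 6 genes were 4.79 to 8.07 (3.86 to 7.55 by counts). By TPM every KK and WK CB library of these 8 genes was above all KK and WK round spermatid libraries. 4930442J19Rik had 87.3 TPM or more in CB RNA and up to 72.8 TPM in round spermatids. Its CPM, scaled apart by kind of library, were 41.3 or more in CB RNA and up to 57 in round spermatids. Gm43353 passed the filter through its CB counts, 7242 against 1 in the KK and WK libraries, a ratio of 5090 after library size (95% counting interval 913 to 201000, which covers counting error only). In WK alone it was at least 461-fold higher in CB RNA, taking a floor of 3 counts over the group.

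Wbscr25 differed from the rest, with a log2 difference of -0.28 in the count fit (SE 0.10, edgeR adjusted p = 0.0138) that turned to 0.58 by the deposited TPM. The call was lost without KK round spermatid library 2 (-0.26, adjusted p = 0.0621). The median gene stood at 0.28 in the count fit and at 1.05 by TPM, so Wbscr25 was below the median gene by either measure. Within genotypes, A930030B08Rik had a CB difference of 2.17 in KK and 0.46 in WK, and 4930442J19Rik had 0.04 in KK and 2.16 in WK, which restates their genotype differences in round spermatids. Markers moved with the kind of library as well. All 9 round spermatid markers fell in CB RNA, to the CB sums given above. In round spermatids they summed to 9710 to 9910 CPM in KK and 9080 to 9600 in WK. All 5 Leydig markers rose in CB RNA. Their part in the differences of the listed genes was not tested.

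**Figure D5:**
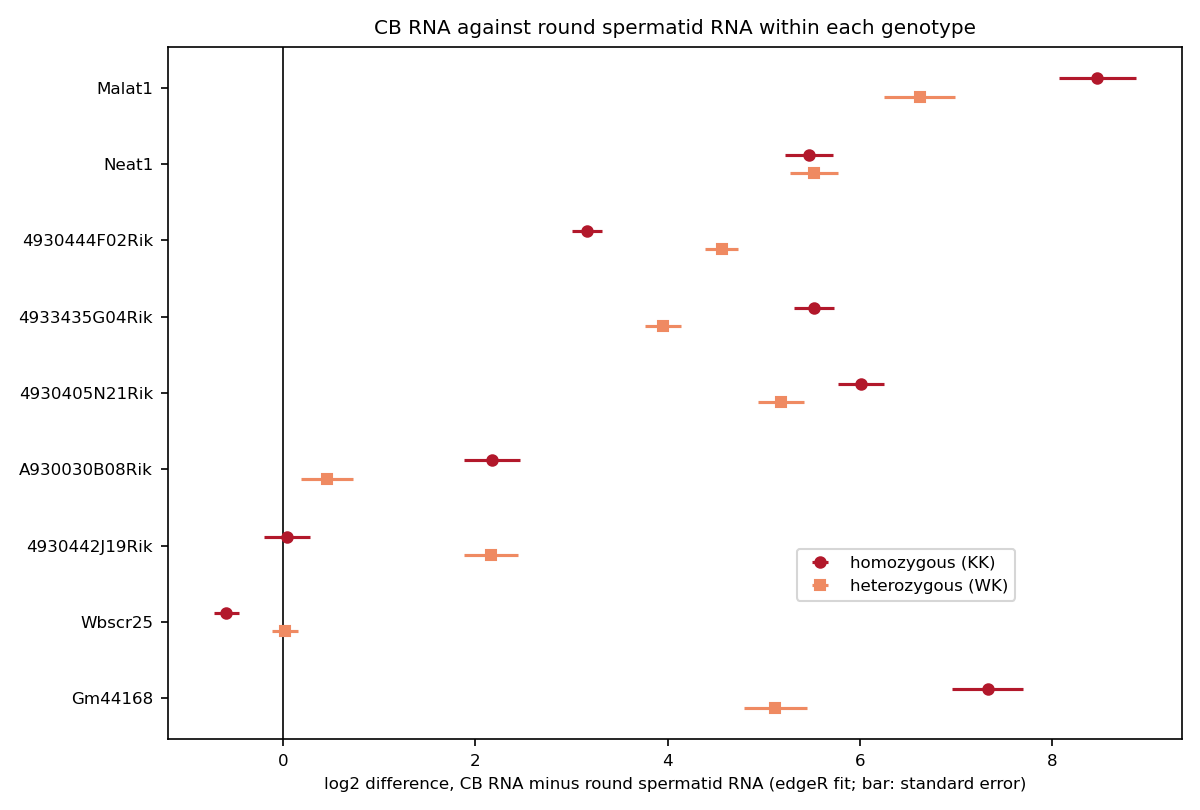
Points are log2 differences between CB RNA and round spermatid RNA within KK and within WK, with standard errors, for the 9 listed genes that passed the filter in round spermatids. Malat1 lies farthest to the right in both genotypes (8.47 in KK, 6.62 in WK), Gm44168 comes next in KK (7.33) but not in WK (5.12), Wbscr25 lies near 0 in WK and below it in KK, and Gm43353 is left out because KK and WK round spermatids held 1 count of it.

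Per length, the order of the genes differed between the kinds of library. In CB RNA Malat1 had the highest level, 814 to 838 TPM in KK and 619 to 999 TPM in WK, and Neat1 and A930030B08Rik the lowest, 23.8 to 31.3 TPM in KK and 28.7 to 36.6 TPM in WK, with overlapping ranges. In KK CB RNA 4930444F02Rik (261 to 299 TPM), 4933435G04Rik (238 to 255 TPM) and Gm43353 (211 to 235 TPM) came next after Malat1, whereas in WK CB RNA Wbscr25 did, at 285 to 382 TPM. In round spermatids Wbscr25 was highest, with 131 to 143 TPM in KK and 187 to 193 TPM in WK. 4930442J19Rik followed at 64.2 to 72.8 TPM in KK and 12 to 15.2 TPM in WK, where A930030B08Rik stood level with it at 12.2 TPM in both libraries.

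Over the 12 RNA libraries, with log2 CPM centred within each kind of library, the listed genes formed a few like-moving pairs. Pearson r was 0.89 for 4930444F02Rik with 4930442J19Rik, 0.88 for 4933435G04Rik with 4930405N21Rik and 0.87 for Malat1 with A930030B08Rik, while Wbscr25 had -0.92 with 4930405N21Rik. These points share genotype and library, and the values are descriptions. Among 16016 genes, the one most like each was Ccdc177 for Malat1 (0.965, then Gm49599 at 0.944 and Gm44661 at 0.941), Slc25a54 for Neat1 (0.931), Sdc3 for 4930444F02Rik (0.990), Mrps7 for 4930442J19Rik (0.984), Mif for 4933435G04Rik (0.958), Gm10505 for 4930405N21Rik (0.944) and AC140207.2 for Gm44168 (0.976). For Wbscr25 these were Ubqlnl (0.986), Fam243 (0.981) and Phospho1 (0.976), and for A930030B08Rik a gene without a symbol (0.974).

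Proteins that work with nuclear long RNAs were followed as lists of other genes. In KK round spermatids 1 of 16 paraspeckle genes rose and 0 fell (6.25%, beside 2.86% of all genes against WT and 1.73% against WK): Cpsf6, a subunit of the cleavage factor that sets polyadenylation sites, had 26.1 ± 2.09 CPM in KK, 10 ± 0.357 in WK and 11 ± 0.434 in WT (SD, n = 2 each), with differences of 1.24 from WT (edgeR adjusted p = 0.0173) and 1.38 from WK (adjusted p = 0.0225). The paraspeckle list had medians of -0.21 against WT and -0.13 against WK, beside 0 over all genes. Of 19 nuclear exosome genes 1 rose (5.26%), the core subunit Exosc2, at 13.6 ± 0.434 CPM in KK, 4.59 ± 0.546 in WK and 4.51 ± 1.32 in WT (SD, n = 2 each; 1.59 over WT, edgeR adjusted p = 0.0309, and 1.56 over WK, adjusted p = 0.0405). The Cpsf6 and Exosc2 calls were lost without either KK or either WK library (edgeR adjusted p = 0.102 to 0.419 over the 2 genes and both comparisons) and kept without either WT library. None of 17 speckle and SR protein genes, 16 genes of 3′ processing and RNA modification, or 26 other well-known long noncoding RNAs was called in any round spermatid comparison by edgeR. In KK against WT round spermatids, 5 speckle, 5 processing and 11 of these noncoding RNA genes had an unadjusted p under 0.05, and DESeq2 called 2, 3 and 3. Over all 17809 genes tested there, 4044 had an unadjusted p under 0.05 and DESeq2 called 1287. None of the 5 lists held a gene called by edgeR in KK against WK CB RNA, where DESeq2 called 1 exosome gene and 0 well-known noncoding RNAs. There 0, 2, 2, 3 and 5 genes of the 5 lists had an unadjusted p under 0.05 (paraspeckle, speckle, processing, exosome and noncoding RNA genes). Over all 19335 genes of that comparison, 2812 had such a p and DESeq2 called 598. In CB RNA against round spermatid RNA, 23 of 34 well-known long noncoding RNAs rose and 5 fell (82.4% called, median 1.36 beside 0.28 over all genes), among them Kcnq1ot1 (158 ± 22.2 CPM in CB RNA and 3.54 ± 1.31 in round spermatids) and Nespas (32.5 ± 3.04 CPM in CB RNA and 0.931 ± 0.248 in round spermatids; SD, n = 6 and 4 libraries for both genes). The classes that the listed genes belong to had rates of calls below the 2.86% of all genes in KK against WT round spermatids: 2.31% of 1475 genes with symbols ending in Rik, 1.69% of 2420 named Gm and a number, and 2.35% of 1575 annotated long noncoding RNAs. Their medians there were -0.24, -0.23 and -0.29, beside 0 over all genes. In KK against WK the class rates were 1.83%, 1.61% and 1.9%, beside 1.73%, and the medians -0.01, -0.04 and -0.01. The well-known long noncoding RNAs had medians of -0.45 against WT and -0.32 against WK. In CB RNA the rates of the same classes were 1.43%, 1.03% and 0.964%, beside 1.72% of all genes.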

How the data were processed

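RNA and small RNA libraries of Ddx4 knock-in germ cells were analysed. Per the file headers, the authors deposited expected counts, TPM and, per isoform, the percent of a gene's TPM (IsoPct) for each RNA library. Expected counts were rounded to whole numbers; deposited TPM, which is corrected for length, was used for levels between genes and as an alternative with a pseudocount of 0.1. Per the file headers, the authors deposited whole-number read counts per piRNA cluster for the small RNA libraries; 5 of 214 clusters were missing from 1 or more libraries and were counted as 0 in those. Per the submitters' processing notes, Trim Galore and the build mm10 were used; aligner and quantifier: not given in the sources used here. Whether the round spermatid libraries keep strand is not stated in the labels.

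Counts were tested with edgeR 4.0.16 in R 4.3.3 (quasi-likelihood F test, TMM factors, filterByExpr, Benjamini-Hochberg adjustment over all features, threshold 0.05), with the 6 round spermatid, the 6 CB, all 12 RNA and all 12 small RNA libraries fitted together in separate fits. DESeq2 1.42.0 was an alternative. Genes of like pattern were found on log2(CPM + 0.5). No pair of libraries agreed within counting noise (lowest chi-square per degree of freedom 2.47). Symbols were missing for 260 genes.

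The listed genes, and the lists of other genes, were chosen with earlier results of these data known. All 10 listed genes, the genes most like each, their neighbours and called list members are named, except 1 item that is not reported here. The small RNA comparison at the cluster covering 4930444F02Rik, and the counts of listed genes called under each alternative, with those of Cldn3, Cpsf6 and Exosc2, were not in the design and were added after seeing the data.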

Additional observations from a re-analysis of the deposited data

Results flagged for a closer look

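Gm44168 differed between KK and WK in opposite directions in the 2 kinds of RNA library: its log2 difference was 0.77 in CB RNA and -1.38 in round spermatids, with no overlap of libraries in either. The difference between these effects was not tested, and the gene was selected on such values.

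The piRNA cluster covering 4930444F02Rik had genotype differences that differed between round spermatids and spermatocytes in an interaction test (edgeR): by 1.64 on the log2 scale for KK against WT (adjusted p = 1.48e-07), 3.33 for KK against WK (adjusted p = 7.15e-10) and -1.69 for WK against WT (adjusted p = 1.24e-07). The median cluster had -0.28, -0.26 and -0.22 in the same contrasts.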

How the results depend on the processing

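The tally of 624 alternative values covers single genes and isoform shares and leaves out the piRNA cluster. Of these values, 549 kept their direction and side of the threshold or moved less than the spread between replicates. A further 72 moved further, 2 lost the threshold and 1 reversed. The reversal is the CB difference of Wbscr25, 0.58 by TPM; it lost the threshold with no filter on low counts (-0.27, adjusted p = 0.0603) and without KK round spermatid library 2 (-0.26, adjusted p = 0.0621). Counts of genes called in KK against WT, KK against WK and WK against WT round spermatids were 1692, 912 and 6 with no filter on low counts and 1287, 796 and 5 with DESeq2; fitting only the compared libraries gave 15 for KK against WT, with 1 listed gene, and 5577 for KK against WK, with 6 listed genes. KK against WK CB RNA had 882 calls with no filter and 598 with DESeq2. Leaving out 1 library at a time gave 0 to 8488 calls for KK against WT, 0 to 5608 for KK against WK, 0 to 7901 for WK against WT and 51 to 2213 in CB RNA, the highest without WT library 2, WT library 1, WT library 2 and WK CB library 1 in turn. The lowest came without either KK library for KK against WT (0), without any KK or WK library for KK against WK (0) and without KK CB library 1 (51); each CB library other than WK library 1 left 51 to 130. Listed genes called ranged over 0 to 6, 0 to 6, 0 to 4 and 5 to 7 in the same 4 comparisons. Nothing in the labels makes a replicate number a shared sample. Correlations of same-numbered deviations were -0.20 to 0.15 among RNA libraries and -0.43 to 0.76 among small RNA libraries (0.76 for WK with WT spermatids), where not every pair was above 0.1; with the replicate block, calls were 182 for KK against WT, 12 for KK against WK with 1 listed gene, and 163 in CB RNA. With that block Cpsf6 stood at adjusted p = 0.0444 against WT and 0.062 against WK, and Exosc2 at 0.0652 and 0.0868. For the cluster covering 4930444F02Rik, WK against WT spermatocytes passed the threshold with the replicate block (-0.16, adjusted p = 0.0426) and without scaling factors (-0.57), and ranged from -0.41 to -0.14 with 1 library left out. KK against WT spermatids passed without scaling factors (0.39) and ranged from -0.16 to 0.25. Of 17 alternatives for each, 10 passed for WK against WT spermatocytes and 2 for KK against WT spermatids, where the main fit did not. The causes of these changes were not tested. Depth limits Neat1, 4930405N21Rik, Gm43353 and Gm44168 in round spermatids, with under 100 counts a library.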
